A study of Mus musculus with 33 samples.

Results

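The genes examined in the mouse tongue were 10 of the fat cell programme: Adipoq, Fabp4, Plin1, Cidec, Pnpla2, Lipe, Lpl, Pparg, Cebpa and Cfd. They were taken by symbol, and all 10 were found, once each, among the 27825 genes of every tongue table and among the 25965 genes of a chondrocyte table used as a contrast. The tongue libraries came from wild type mice and from mice of the Zac1o knockout, called biallelic here because both alleles of Plagl1 (Zac1), an imprinted transcription factor gene, are active in them. Tongues were taken in the embryo at E13.5, on the day of birth (P0) and at postnatal day 20 (P20), with 3 libraries per genotype and stage. The chondrocytes were sorted from E18.5 ribcages by the surface proteins Cd24a and Cd200, in 6 biallelic and 5 wild type animals, each from about 2000 cells. The whole tongue holds muscle, epithelium, vessels, connective tissue and glands, so in these libraries fewer cells of a type and less RNA per cell cannot be told apart.

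White fat cells store triglyceride in a droplet and release it as fatty acids. Pparg and Cebpa are the transcription factors that drive their formation. Lpl frees fatty acids from blood lipoproteins, Fabp4 carries them inside the cell, and Pnpla2 and Lipe cut stored triglyceride and diglyceride. Plin1 and Cidec coat and enlarge the droplet, and Adipoq (adiponectin) and Cfd (adipsin) are secreted. The first 6 of these genes are also used outside fat: Lpl and Pnpla2 in muscle, Fabp4 in capillary endothelium, Pparg in macrophages and epithelium, Cebpa in myeloid cells and epidermis. Adipoq, Plin1 and Cidec are much more restricted to fat cells.

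The data went against the label of fat cells. The 6 members Lpl, Pnpla2, Fabp4, Lipe, Pparg and Cebpa were readily measured after birth, while Adipoq, Plin1, Cidec and Cfd did not reach 1 RPM (the reads of a gene scaled to the read total of its library) in any of the 18 tongue libraries. This division into 4 and 6 members was made from the measured levels and is a description. The 6 are therefore called the shared lipid genes below, and the 4 the low members.

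The low members include the genes that define a fat cell. Adipoq, the adiponectin gene on chromosome 16 of GRCm38 (23146536 to 23158028), had 8 reads over the 6 libraries at E13.5, 10 at P0 and 16 at P20. Plin1, the droplet coat protein of fat cells (chromosome 7, 79721164 to 79732776), had 2, 8 and 24 reads at the same stages. Cidec, which fuses droplets (chromosome 6, 113424634 to 113435760), had 0 reads at E13.5 and 13 at each of P0 and P20. Cfd, a serine protease of the complement system (chromosome 10, 79890853 to 79892656), had 0, 2 and 29 reads. With read totals of 36832717 to 92249098 per tongue library, 3 reads, the limit that a count of 0 allows, correspond to 0.0325 to 0.0814 RPM, counting error only. At P20 the wild type libraries held 8, 12 and 5 reads of the 4 genes together and the biallelic libraries 0, 14 and 43. Biallelic replicate 3 stood highest, with 20 reads of Plin1 (0.378 RPM) and 10 of Adipoq (0.189 RPM), and biallelic replicate 1 had none. The wild type values lay within the range of the biallelic ones. The leptin gene Lep was at 0 reads in all 9 wild type tongue libraries, and Ucp1, the heat-producing protein of brown fat, had a highest value of 0.315 RPM. Lep in biallelic libraries, and Retn, are counted only in the sum of fat cell markers given for P20 below.

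**Figure D1:**
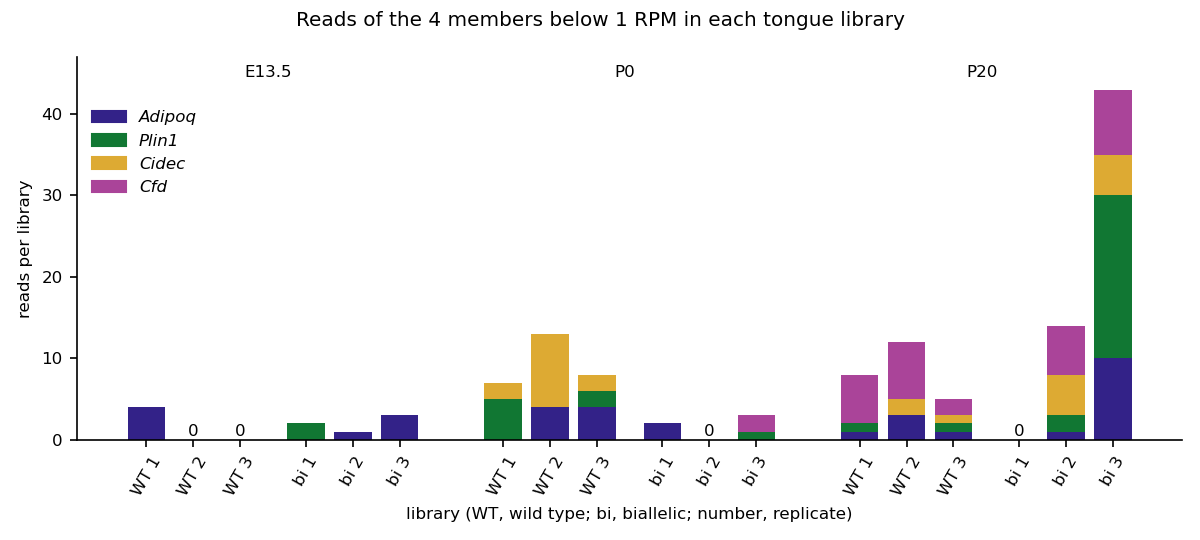
Reads of Adipoq, Plin1, Cidec and Cfd (vertical axis, stacked) in each of the 18 tongue libraries (horizontal axis, by stage, genotype and replicate). Biallelic replicate 3 at P20 holds 43 reads of the 4 genes, against 0 to 14 in the other libraries.

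The promoters of the members, taken from RefSeq on GRCm38.p6 as 300-base windows from 250 bases before to 50 after a start, are shown because the members differ in base composition around their starts. Of the 10 members 8 had windows, 12 in all. The median window over all 32851 promoters held 7 CpG dinucleotides (quartiles 3 and 20). Adipoq had 0, Plin1 2, Cfd 2 and Cidec 7 and 6 in its windows, while Pnpla2 had 18 and Cebpa 29. Lipe had 2 and 19 at separate starts. Pparg had 44 and 13 at upstream starts and 2 at the third start, which lies far downstream and is known as the start of the fat-restricted isoform. The read counts are per gene, so the starts of Pparg cannot be told apart here.

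The windows of Adipoq, Plin1, the third Pparg start, Pnpla2 and Cebpa are given 5′ to 3′ in the direction of the gene, with capitals at matches to the motifs listed after them.
Adipoq, chr16:23146286-23146585, plus strand: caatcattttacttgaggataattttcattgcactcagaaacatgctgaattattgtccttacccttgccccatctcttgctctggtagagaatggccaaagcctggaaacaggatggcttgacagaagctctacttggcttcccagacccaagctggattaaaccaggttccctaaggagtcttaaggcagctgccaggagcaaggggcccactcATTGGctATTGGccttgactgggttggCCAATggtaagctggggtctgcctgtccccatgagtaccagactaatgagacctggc
Plin1, chr7:79732727-79733026, minus strand: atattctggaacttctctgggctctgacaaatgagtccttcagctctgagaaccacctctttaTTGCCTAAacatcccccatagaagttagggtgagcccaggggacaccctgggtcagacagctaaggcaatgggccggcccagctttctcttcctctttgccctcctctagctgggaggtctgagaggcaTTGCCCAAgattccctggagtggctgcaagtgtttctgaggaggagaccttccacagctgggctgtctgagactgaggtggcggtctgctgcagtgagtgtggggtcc
Pparg, the third start, chr6:115421816-115422115, plus strand: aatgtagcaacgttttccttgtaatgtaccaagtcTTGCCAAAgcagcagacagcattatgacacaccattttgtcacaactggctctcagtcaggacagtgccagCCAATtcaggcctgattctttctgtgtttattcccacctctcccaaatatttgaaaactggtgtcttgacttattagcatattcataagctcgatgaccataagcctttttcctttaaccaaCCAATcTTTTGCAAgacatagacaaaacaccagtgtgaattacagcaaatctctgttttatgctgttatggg
Pnpla2, chr7:141454938-141455237, plus strand: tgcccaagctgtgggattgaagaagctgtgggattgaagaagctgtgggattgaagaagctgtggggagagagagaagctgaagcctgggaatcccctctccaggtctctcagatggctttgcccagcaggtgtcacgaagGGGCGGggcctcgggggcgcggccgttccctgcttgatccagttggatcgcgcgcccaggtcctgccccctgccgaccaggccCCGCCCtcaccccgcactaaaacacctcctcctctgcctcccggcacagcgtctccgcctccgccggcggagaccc
Cebpa, chr7:35119043-35119342, plus strand: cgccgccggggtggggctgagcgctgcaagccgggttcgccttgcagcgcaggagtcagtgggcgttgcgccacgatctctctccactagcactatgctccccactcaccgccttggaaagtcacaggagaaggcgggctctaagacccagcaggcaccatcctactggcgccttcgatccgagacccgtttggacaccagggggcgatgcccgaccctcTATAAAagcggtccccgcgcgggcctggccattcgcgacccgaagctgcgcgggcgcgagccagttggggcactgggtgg

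In all 7 motifs were searched on both strands, and a match is only a description of the letters. TTGCNNAA, a loose form of the element read by C/EBP factors, matched in the windows of Plin1 (2 matches), Cidec (1) and the third Pparg start (2), and in 10.8% of all windows. GGGCGG, the GC box, matched in Pnpla2 (2 matches), in 1 Lipe window (6) and at both upstream Pparg starts, and in 35.66% of all windows. TATAAA was found in the Cebpa window and at the second Pparg start, and in 13.62% of all windows, and CCAAT in the windows of Adipoq (3 matches) and of the second and the third Pparg start, and in 37.41%. AGGTCA, the core element of nuclear receptors, was found at both upstream Pparg starts and in 16.26% of windows. The direct repeat AGGTCANAGGTCA, which contains it and is read by Pparg with Rxra, matched in no member and in 0.04% of all windows. GGGGCCCC, a palindrome that Plagl1 is known to bind, matched in no member window and in 1.08% of all windows.

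Over development, 5 of the 6 shared lipid genes rose between E13.5 and birth, in both genotypes, and Cebpa did not pass the test. Lpl, the lipase that acts on blood lipoproteins (chromosome 8, 68880491 to 68907448), was at 3.13, 4.79 and 4.08 RPM in the wild type and 3.37, 3.01 and 6.41 RPM in the biallelic tongues at E13.5. At P0 it was at 80.4, 65.0 and 73.5 RPM in the wild type and 54.4, 61.5 and 61.1 RPM in the biallelic tongues. Every P0 library lay above every E13.5 library, and the log2 fold change was 4.21 (SE 0.26) in wild type and 3.87 (SE 0.26) in biallelic tongues. These changes come from a limma fit of all 18 tongue libraries over 13663 genes, with Benjamini-Hochberg adjustment over all of them. Limma's adjusted p for Lpl was 3.24e-10 in wild type and 8.39e-10 in biallelic tongues.

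Fabp4, the fatty acid carrier (chromosome 3, 10204347 to 10208576), went from nearly nothing to a clear signal. At E13.5 its reads numbered 0, 6 and 0 in the wild type and 0, 1 and 2 in the biallelic libraries. At P0 it was at 6.70, 10.0 and 9.70 RPM in the wild type and 7.05, 9.83 and 10.3 RPM in the biallelic tongues, without overlap with E13.5. The ratio of pooled RPM was 207.2 in wild type (exact 95% interval 95 to 565.4) and 397.2 in biallelic tongues (135.7 to 1927.9), counting error only.

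Pnpla2, the lipase that begins triglyceride breakdown (chromosome 7, 141455198 to 141460743), was at 0.829, 0.439 and 1.29 RPM in the wild type and 0.878, 1.52 and 0.50 RPM in the biallelic tongues at E13.5. It reached 14.5, 18.3 and 12.9 RPM and 12.7, 16.8 and 19.4 RPM at P0. The stages did not overlap, and the log2 fold change was 4.28 (SE 0.36) in wild type and 4.2 (SE 0.36) in biallelic tongues. Pparg, the master regulator (chromosome 6, 115361221 to 115490401), rose by 3.87 (SE 0.41) and 4.64 (SE 0.41) on the log2 scale. It went from 0.854, 0.591 and 0.190 RPM to 5.92, 6.40 and 7.95 RPM in wild type tongues, and from 0.208, 0.272 and 0.416 RPM to 6.04, 7.63 and 7.84 RPM in biallelic tongues. Lipe, hormone-sensitive lipase (chromosome 7, 25379527 to 25398710), was already at 0.958 to 3.53 RPM at E13.5 and at 5.63 to 9.46 RPM at P0. Its log2 fold change was the smallest of the 5, at 1.94 (SE 0.40) in wild type and 1.83 (SE 0.40) in biallelic tongues.

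Cebpa, the second of the fat cell transcription factors (chromosome 7, 35119293 to 35121926), had a different course. It was at 10.9, 3.97 and 5.37 RPM in wild type and 5.96, 8.93 and 4.25 RPM in biallelic tongues at E13.5, and at 4.71, 4.03 and 4.08 RPM and 6.39, 5.01 and 4.72 RPM at P0. The stages overlapped in both genotypes. The change in log2 RPM was -0.53 in wild type (SE 0.31, limma adjusted p = 0.128) and -0.19 in biallelic tongues (SE 0.31, limma adjusted p = 0.579). Without wild type replicate 2 of E13.5 the wild type value was -0.85 and passed the threshold (limma adjusted p = 0.0213). Of all genes, 37.9% were called higher at P0 than at E13.5 in wild type and 39.7% in biallelic tongues, against 5 of the 6 tested members in each, and the median over all genes was -0.04 and 0.05 against 4.04 and 4.04 for the members. A member had to reach 1 RPM in 3 libraries to be tested, so genes that switch on after E13.5 entered through the later stages. Fabp4 and Pparg reached 1 RPM in 0 of the 6 libraries at E13.5 and Pnpla2 in 2, so this holds for these 3. The 6 were also set apart by their measured levels. Their count and median beside all genes are therefore only a description.

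**Figure D2:**
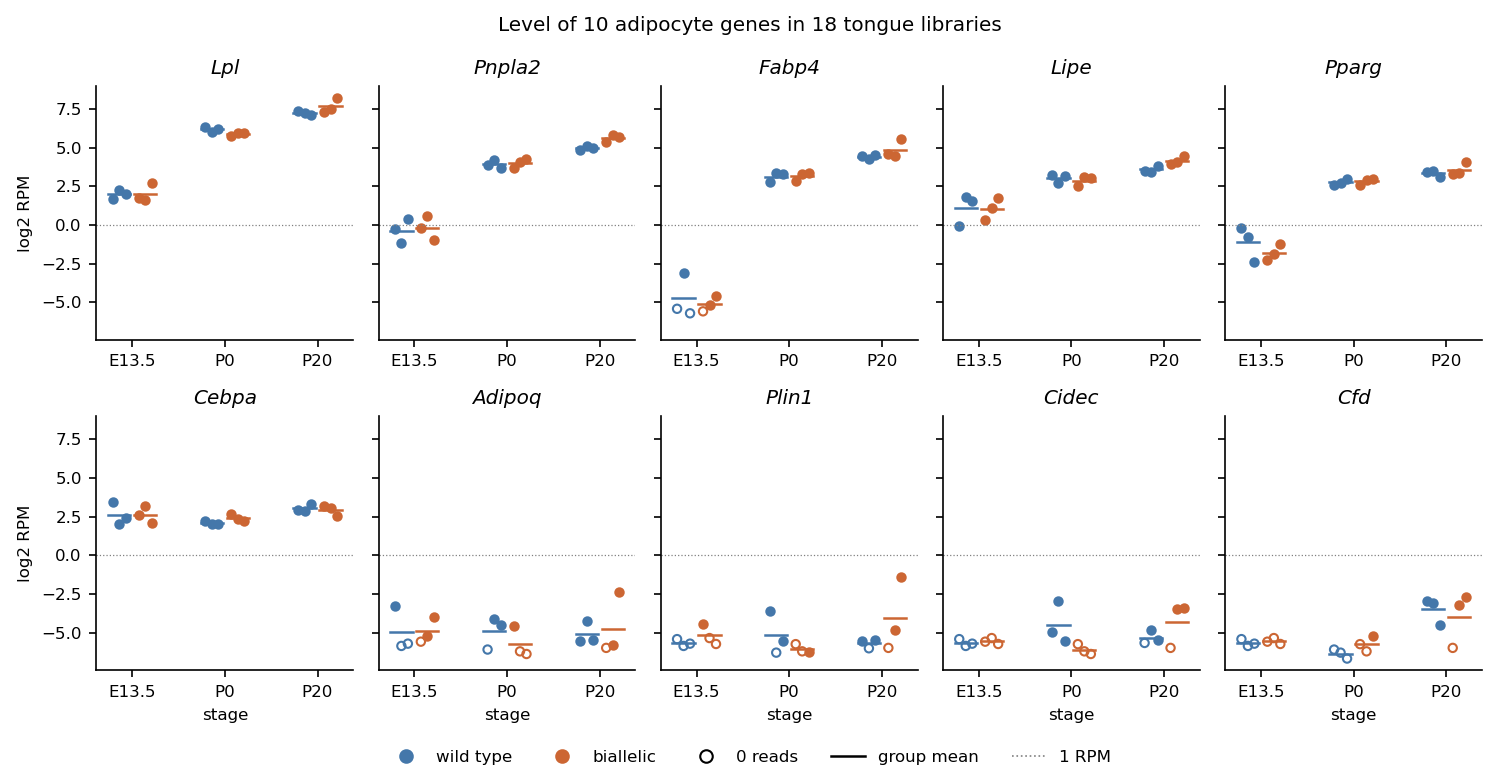
Deposited log2 RPM (vertical axis) of each of the 10 members in every tongue library by stage (horizontal axis), with wild type in blue, biallelic in orange, bars at the group means, a dotted line at 1 RPM and open circles for libraries with 0 reads, which the authors set to the level of 0.9 reads. Of the 6 shared lipid genes 5 step up between E13.5 and P0, Cebpa stays within 3.97 to 10.9 RPM at all stages, and the 4 low members lie below 1 RPM throughout.

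From birth to P20 Lpl, Pnpla2 and Fabp4 rose further in both genotypes, by less than before birth. In wild type tongues Lpl rose from the P0 values above to 166.7, 152.1 and 137.3 RPM, and in biallelic tongues to 156.7, 176.6 and 301.4 RPM, rises of 1.06 (SE 0.26, limma adjusted p = 0.00306) and 1.78 (SE 0.26, limma adjusted p = 4.03e-05) in log2 RPM. Pnpla2 rose to 28.5, 34.8 and 32.0 RPM in wild type and 40.5, 55.1 and 51.7 RPM in biallelic tongues, by 1.07 (SE 0.36) and 1.60 (SE 0.36) on the log2 scale. Fabp4 rose to 21.7, 19.1 and 22.6 RPM and to 23.7, 21.7 and 46.2 RPM, by 1.28 (SE 0.50, limma adjusted p = 0.0463) and 1.69 (SE 0.50, limma adjusted p = 0.0117).

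For the other 3 shared genes the genotypes are given side by side, and the difference between them is tested further on. Cebpa rose by 0.94 (SE 0.31) in wild type and had 0.50 (SE 0.31, limma adjusted p = 0.198) in biallelic tongues. Lipe rose by 1.29 (SE 0.40) in biallelic tongues and had 0.55 (SE 0.40, limma adjusted p = 0.265) in wild type. Pparg had 0.59 and 0.72 and passed in neither. All 6 members had higher means at P20 in both genotypes, and 4 of 6 passed in each, where 31.7% of all genes were called higher in wild type and 29.9% in biallelic tongues. The median of all genes was itself 0.22 and 0.18, so relative to it the members' medians of 1.0 and 1.44 are smaller. When each library was centred on its median, Lpl alone of the 4 wild type calls passed (0.84, limma adjusted p = 0.0152). Leaving out wild type replicate 3 of P0 or of P20 also left 1 of 6 wild type calls, and leaving out wild type replicate 1 or 2 of P0, or replicate 2 of P20, left 2. The wild type call of Fabp4 was lost with any of 12 of the 18 libraries left out. In biallelic tongues Fabp4 was not called without biallelic replicate 3 of P20 (1.35, limma adjusted p = 0.0576), nor Lipe without biallelic replicate 1 of P0 (1.10, limma adjusted p = 0.0608). A fit of the P0 and P20 libraries alone was chosen after seeing that genes near 0 at E13.5 spread widely there. In it 6 of 6 passed in each genotype. The shares of all genes above belong to the 18-library fit, and none is given for this one. The count of 6 therefore cannot be set against all genes. E13.5 RNA was extracted with another kit than P0 and P20 RNA, and each stage is a table of its own, so stage, extraction and table cannot be told apart for the first step, nor stage and table for the second.

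**Figure D3:**
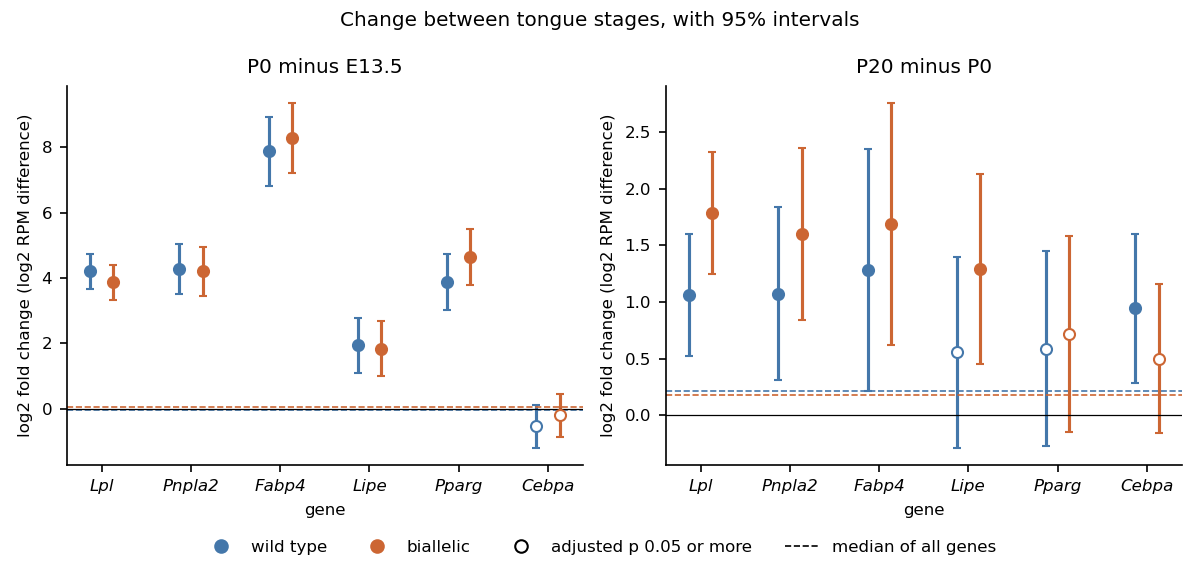
Log2 fold change between stages (vertical axis) for the 6 shared lipid genes (horizontal axis), with 95% intervals from the 18-library fit, wild type in blue and biallelic in orange; open points have an adjusted p of 0.05 or more, and dashed lines mark the median of all genes. The left panel, with changes up to 8.28 for Fabp4, has a wider scale than the right one, where all points lie between 0.50 and 1.78. The size of the Fabp4 change in the left panel rests on 0 to 6 reads per library at E13.5.

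Levels between genes can be compared only per length, here RPM per kilobase of the union of annotated exons (GENCODE M21). At P20, setting Fabp4 aside, Lpl had the highest level, with a median of 15.4 RPM per kilobase over the 6 libraries (13.1 to 28.8), and Pnpla2 followed at 12.5 (9.42 to 18.3), so that the ranges overlapped. Pparg had a median of 3.51 (2.94 to 5.57), Cebpa 3.0 (2.24 to 3.70) and Lipe 2.53 (1.85 to 3.67), and these 3 overlapped each other but not Pnpla2. Fabp4 had a median of 4.94 (4.25 to 10.3), but its union of 4489 bases covers the whole annotated gene, introns included, so this level is understated and its place in the order is not known. The union was longest for Lpl (10478 bases) and Lipe (5886 bases). Where a union exceeds the transcript in use the level is understated, so the order of all these genes depends on this choice of length. The low members had medians of 0.0047 (Plin1) to 0.123 (Cfd) RPM per kilobase. At E13.5 Cebpa stood highest instead, with 2.56 ± 1.40 RPM per kilobase in wild type tongues (SD, n = 3), against 0.42 ± 0.23 for Lipe and 0.38 ± 0.08 for Lpl.

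Partner genes of the same pathway, from lists drawn up beside the members, moved between stages as follows, beside 37.9% of all genes called higher and 39.9% called lower from E13.5 to P0 in wild type tongues. Of 14 tested genes for triglyceride synthesis and uptake, 10 rose and 1 (Dgat1, -0.52) fell between E13.5 and P0 in wild type tongues, with a median of 2.57. The fatty acid receptor Cd36 went from 1.90 ± 1.24 to 69.4 ± 9.45 RPM (SD, n = 3 each), or by 5.37 in log2 RPM, and the glycerol channel Aqp7 had 5.52. Of 12 lipid droplet and lipase partners 7 rose and 3 fell. The rising ones included the droplet coat proteins Plin4 (11.27) and Plin5 (6.52), and Cidea (5.92), which also counts among the brown fat genes. Plin4 and Cidea lay at or near the level of 0 reads at E13.5. The size of their changes therefore depends on where that level was set. Plin5, Aqp7 and Thrsp (below) reached 1 RPM in fewer than 3 libraries at E13.5, so the sizes of their changes also rest on low values. The falling ones were Plin2 (-0.94), Plin3 (-1.67) and Hilpda (-2.48), droplet proteins of many cell types. Plin4 reached 50.8 ± 10.2 RPM at P0 in wild type tongues (SD, n = 3), while its family member Plin1 was at 0.0811 RPM or less there. Of 13 adipogenic regulators 11 rose, among them Ebf1 (3.30) and Ppargc1a (4.77), a coactivator of mitochondrial genes. Of 11 lipogenic enzymes and regulators 3 rose and 3 fell: Fasn, fatty acid synthase, had -0.89 and Thrsp 8.64. Genes of these lists entered the fit by the same filter as the members, some of them only through the later stages. The lists were also chosen with earlier results of these data known. Their counts and medians beside all genes, here and from P0 to P20, are therefore only a description.

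From P0 to P20 in wild type tongues, where 31.7% of all genes were called higher and 14.9% lower, 7 of the 14 triglyceride genes rose and 1, Angptl4, an inhibitor of Lpl, fell by 2.50 on the log2 scale. In biallelic tongues Angptl4 had -0.35 (limma adjusted p = 0.736) with overlapping stages, and the difference between the genotypes was 2.16 (SE 1.11, limma adjusted p = 1). The synthesis genes Gpam (1.44), Agpat2 (1.12), Lpin1 (1.71) and Dgat2 (1.56) were among those that rose. Abhd5, the activator of Pnpla2, rose by 1.34 and Mgll, the monoglyceride lipase, by 1.18, among 5 of 12 droplet and lipase partners. Dlk1, an imprinted inhibitor of fat cell formation, fell by 7.08, from 227.4 ± 17.5 to 1.68 ± 0.14 RPM (SD, n = 3 each). Marker genes of other cells also moved between the stages. The summed level of 7 muscle fibre markers went from 59.7 to 145.7 RPM at E13.5 to 5172 to 8187 RPM at P0 and 6353 to 9615 RPM at P20, that of 7 endothelial markers from 18.9 to 70.2 to 139.9 to 159.4 and 167.5 to 322.5 RPM, and that of 5 keratinocyte markers from 235.4 to 495.8 to 1855 to 2765 and 4818 to 8477 RPM. The part of these cells in the members' changes was not tested.

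The genotype comparison asked whether these genes differ when both alleles of Plagl1 are active. No member passed the test at any stage. At E13.5, 3 members could be tested (Lipe -0.07, Lpl 0.03 and Cebpa -0.01 log2 fold change, biallelic minus wild type), and none of all 11869 genes passed by limma (0%). Of these 386 had an unadjusted p below 0.05, and voom on the recovered reads called 0. Their 95% intervals were wide, from -1.23 to 1.10 for Lipe and from -0.67 to 0.73 for Lpl. Pnpla2, Fabp4 and Pparg were below 1 RPM in more than 3 libraries at that stage and were not tested.

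At P0 the 6 shared lipid genes were tested, and 0 were called, against 0.016% of all genes (2 of 12489 by limma, 0 by voom, and 412 with an unadjusted p below 0.05). Lpl was lower in all 3 biallelic tongues than in any wild type tongue, at 59.0 ± 4.01 against 73.0 ± 7.72 RPM (SD, n = 3 each), and differed by -0.30 in log2 RPM (SE 0.11, limma adjusted p = 0.9998). Such a separation downward was seen for 3.07% of all genes. Cebpa was higher in all 3 biallelic tongues, at 5.38 ± 0.89 against 4.27 ± 0.38 RPM (SD, n = 3 each), or 0.32 (SE 0.16), and 5.83% of all genes were separated upward in this way. With 3 against 3 libraries a single gene cannot go below an exact two-sided p of 0.1. The other 4 ranged from -0.17 (Lipe) to 0.10 (Pnpla2), with overlapping groups. The median over the 6 was 0.06, beside 0.04 over all genes.

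At P20 5 of the 6 had higher means in the biallelic tongues, and again 0 were called, as were 0% of all genes (0 of 12693 by limma and by voom, while 286 had an unadjusted p below 0.05). Pnpla2 was at 49.1 ± 7.66 RPM in biallelic and 31.7 ± 3.16 RPM in wild type tongues (SD, n = 3 each), which differ by 0.62 in log2 RPM (SE 0.14, 95% interval 0.29 to 0.96). It had the rank 17 among all genes by unadjusted p (0.00311), and its limma adjusted p was 1. Lipe, which acts after it on diglyceride, was at 18.04 ± 3.15 against 12.2 ± 1.75 RPM (SD, n = 3 each), or 0.56 (SE 0.16, 95% interval 0.19 to 0.93, rank 41). In both, every biallelic library lay above every wild type library, as for 3.14% of all genes. Fabp4 had 0.45 (SE 0.27), Lpl 0.42 (SE 0.24), Pparg 0.22 (SE 0.22) and Cebpa -0.12 (SE 0.19), all with overlapping groups. The median of the 6 was 0.43, beside -0.02 over all genes.

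One library carried much of this at P20. Biallelic replicate 3 had the highest value of Fabp4 (46.2 RPM, 19.1 to 23.7 in the other 5 libraries), of Lpl (301.4 RPM, 137.3 to 176.6) and of Pparg (16.4 RPM, 8.68 to 10.99), and the lowest of Cebpa (5.91 RPM, 7.30 to 9.76). Without it the median of the 6 was 0.12, Fabp4 had 0.11, Lpl 0.13 and Pparg -0.03, while Pnpla2 kept 0.58 and Lipe 0.43. The same library held 322.5 RPM of 7 endothelial markers, all with reads, where the other biallelic libraries held 192.7 and 199.2 and the wild type libraries 167.5 to 203.8, and 4818 RPM of the 5 keratinocyte markers, where the others held 5955 to 8477. It also held 36 reads of the 5 fat cell markers Adipoq, Plin1, Cidec, Lep and Retn, where the others held 0 to 10. The part of these cells in the result was not tested.

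The partner genes at P20 were described in the same way, and 0 of them were called. Of all genes, 44.7% had higher means in biallelic tongues at this stage. Of 11 tested droplet and lipase partners 10 had higher means in biallelic tongues (median 0.23), and without biallelic replicate 3 8 of 11 did (median 0.12). Of 14 triglyceride genes 11 were higher in the mean (median 0.30), and without that library 11 of 14 (median 0.09). Cd36 (0.58), Slc27a1, a fatty acid transporter (0.52), Acsl1, which activates fatty acids (0.45), and Gpihbp1, which holds Lpl on capillary walls (0.58), were also higher in each biallelic library than in any wild type one, as 3.14% of all genes were, and their values without that library were 0.27, 0.31, 0.20 and 0.38. Of 11 lipogenic genes 2 were higher in the mean (median -0.13), and without that library 4 of 11 (median -0.0985). Dlk1 was at 6.75 ± 3.51 RPM in biallelic and 1.68 ± 0.14 RPM in wild type tongues at P20 (SD, n = 3 each), or 1.88 in log2 RPM (SE 0.34, limma adjusted p = 1). At P0 the droplet and lipase partners were instead lower in the mean in 11 of 11 (median -0.19), none of them called, while 60.7% of all genes had higher means. The 7 muscle fibre markers were lower in the mean as well (median -0.30, 0 called). For Mb (-1.15) and Myh4 (-0.97) the groups did not overlap, and 3.07% of all genes were separated downward in this way. The summed level of the 7 markers was 5365 to 8187 RPM in wild type and 5172 to 6047 RPM in biallelic tongues at P0. The part of muscle fibres in the lower Lpl and partner values was not tested.

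**Figure D4:**
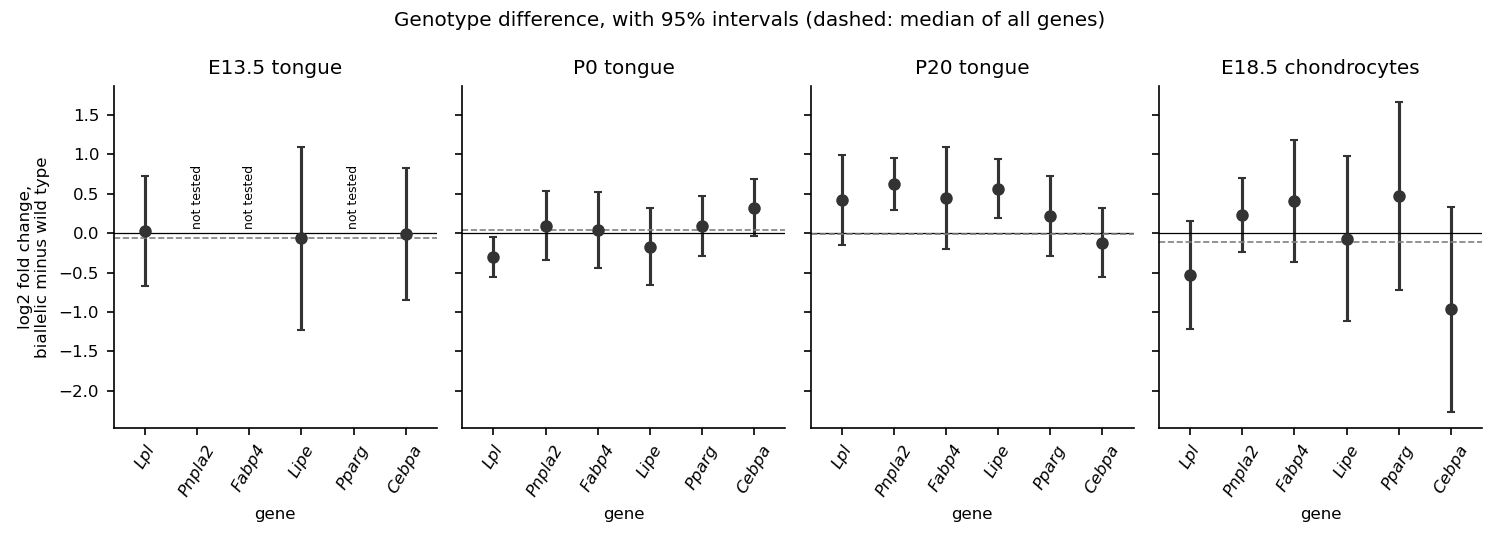
Log2 fold change, biallelic minus wild type (vertical axis), of the 6 shared lipid genes (horizontal axis) in each tongue stage and in E18.5 chondrocytes, with 95% intervals; the dashed line is the median of all genes. At P20 5 of 6 points lie above 0 and the intervals of Pnpla2 and Lipe do not reach it; no point passed the adjusted threshold.

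Whether the genotype difference itself changed with stage was tested in the 18-library fit. For P20 minus P0, 0 of 13663 genes (0%) passed by limma and 0 by voom, while 185 had an unadjusted p below 0.05. The largest differences among the members were 0.74 (SE 0.56) for Lipe and 0.72 (SE 0.36, 95% interval -0.04 to 1.49) for Lpl, which was lower at P0 and higher at P20 in the biallelic mean. For P20 minus E13.5, 0 of 13663 (0%) passed by limma and 0 by voom, while 571 had an unadjusted p below 0.05.

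In the cells sorted as chondrocytes the same division was seen. The 6 shared lipid genes were measured in all 11 libraries, and Adipoq, Plin1, Cidec and Cfd had 0 to 13 reads per library. Read totals were 7221013 to 15689559 in biallelic and 2938462 to 7887305 in wild type animals. Depth thus went largely with genotype, and its part in the genotype comparison was not tested. Adipoq passed 1 RPM in 1 wild type library (1.55 RPM) and Cfd in another (1.88 RPM), where 3 reads correspond to 0.1912 to 1.0209 RPM. Pnpla2 was at 48.7 ± 9.53 RPM in biallelic (SD, n = 6) and 42.5 ± 12.5 RPM in wild type animals (SD, n = 5), and Lpl at 27.5 ± 10.6 and 37.9 ± 12.6 RPM. Fabp4 was at 16.3 ± 6.73 and 12.5 ± 5.32 RPM, Pparg at 11.2 ± 3.37 and 10.5 ± 6.61, Lipe at 7.73 ± 3.41 and 7.87 ± 4.15, and Cebpa at 2.45 ± 1.62 and 5.03 ± 3.38 RPM. All groups overlapped, and limma called 0 of the 6 and 0% of all genes (0 of 11127, also by voom, while 1298 had an unadjusted p below 0.05). The log2 fold changes ran from -0.97 (SE 0.61, 95% interval -2.27 to 0.34) for Cebpa to 0.47 (SE 0.56) for Pparg, against a median of -0.11 over all genes. These cells were not chondrocytes alone: 7 macrophage markers summed to 2380 to 3661 RPM, above the 172.5 to 861.6 RPM of 5 chondrocyte markers. The sum of 5 neutrophil markers was 60.7 to 157.5 RPM in biallelic and 108.9 to 1618 RPM in wild type animals. The members' levels here cannot be assigned to 1 cell type, and the part of blood cells in them was not tested. For 4 biallelic animals the labels list 2 libraries that the table gives as 1 column, and each animal was counted once.

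Within stage and genotype, the members did not vary as 1 group. By the rule for likeness, only Lipe, Lpl and Cebpa entered over the 18 libraries, and the deviations of Cebpa correlated at r = -0.80 with the mean of the other 2. Over the 12 libraries of P0 and P20, chosen after seeing the data, Fabp4 (r = 0.71), Pparg (0.70), Lpl (0.70) and Lipe (0.59) deviated with the mean of the other members, Pnpla2 little (0.21) and Cebpa in the opposite direction (-0.85). The genes whose deviations were most like the mean of the 6 members were Stac (r = 0.97), Dhdh (0.95), Lix1l (0.94), Tmem65, Fam195b, Cd36, Adssl1 and Ptplad2 (0.92). Over 18 libraries and 3 members they were C130074G19Rik (0.90), Mmp16, Xpnpep1, Kcnq5, Ccdc88a, Hirip3, Gna11 and Thbs3 (0.87). Biallelic replicate 3 of P20, which stood highest for Fabp4, Lpl and Pparg and lowest for Cebpa, is 1 of these libraries. Its part in the correlations and in the genes most like the members was not tested. The points share their libraries, and with it depth and tissue composition, so these correlations are descriptions of the libraries.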

How the data were processed

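The 18 tongue libraries were strand-specific (dUTP) and came from 300 ng of RNA after removal of ribosomal RNA, with 10 PCR cycles, and the 11 chondrocyte libraries were SMART-seq2, per the labels' protocols. Reads were trimmed with Trim Galore 0.4.2, and TopHat2 2.1.0 (tongues) or HISAT2 (chondrocytes) is named for alignment on GRCm38, per the submitters' processing notes. The sources used here do not say how reads were counted, or on which strand. Lipe, Pparg and Cebpa each overlap an antisense gene, whose reads cannot be told apart from theirs. The authors deposited log2 RPM values per gene, with no correction for length, in which 0 reads stand at 0.9 reads. Reads were recovered from these values: 100% of those below 1000 reads came out whole within 0.05.

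Genes at 1 RPM or more in 3 libraries (5 animals for chondrocytes) were tested on the deposited log2 values with limma 3.58.1 in R 4.3.3 (mean-variance trend, Benjamini-Hochberg threshold of 0.05). Genotypes were compared within each table, and stages in 1 fit of all tongue libraries. The step was tested on simulated data with known changes. All library pairs differed by more than sampling noise (smallest chi-square over its degrees of freedom 7.09). The members and gene lists were chosen with earlier results of these data known. The rule names every member, list genes past the threshold or else the 2 of smallest p, and the 8 genes most like the members; which of these list genes serve as examples was chosen after their values were seen. Litter and sex are not given for the animals. Alternatives were median centring, log2(RPM + 1), filters of 5 RPM and none, no trend, voom, the replicate number as a block, and leaving out each library.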

Additional observations from a re-analysis of the deposited data

Results flagged for a closer look

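In the chondrocytes 3 values of the shared lipid genes lay far from the others of their group, judged by the gap to the nearest value relative to the range of the group. Lipe was at 0.85 log2 RPM in biallelic animal 5, where the other biallelic animals had 2.57 to 3.49. Pparg was at 2.45 log2 RPM in biallelic animal 2 (others 3.40 to 3.96) and at 0.38 in wild type animal 9 (others 3.07 to 4.15), the latter from 9 reads. Among 12 groups examined, chance marks about 1 in 20. Without wild type animal 9 the genotype difference of Pparg was -0.17 instead of 0.47, and without biallelic animal 5 that of Lipe was 0.31 instead of -0.07. None of these passed the threshold.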

How the results depend on the processing

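No member was called for genotype under any alternative. Called genes at P0 numbered 1 with median centring or no filter and 0 without the trend, with voom and with the replicate number as a block, instead of 2, and 0 to 4 with a library left out. The numbers were not taken to pair the samples. Same-numbered libraries correlated at -0.65 to 0.36 in their deviations over the 3 stages, and at 0.04 to 0.16 at E13.5. With 3 libraries per group these correlations cannot show whether the samples were paired. In the replicate block Pnpla2 at P20 kept 0.62 (SE 0.12), not called. Without the filter 20373, 19861 and 15070 genes were called for P0 minus E13.5 (wild type, biallelic) and P20 minus P0 (wild type). Wild type members called from P0 to P20 numbered 1 with median centring and 1 to 4 with a library left out. For the stage difference of the genotype effect, called genes numbered 1 with median centring (P20 minus P0; 0 to 1 with a library left out) and 1 without the trend (P20 minus E13.5; 0 to 8). With a library left out, the members' median genotype effect ran from -0.31 to 0.17 at E13.5, from -0.050 to 0.20 at P0, from 0.12 to 0.60 at P20 and from -0.053 to 0.22 in chondrocytes (0.31 with median centring).

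Signs turned only for values that were not called. With median centring these were Cebpa at E13.5 (0.050) and Lipe in chondrocytes (0.16), and with voom the same pair (0.0105 and 0.13). With 1 library left out, Lipe ran from -0.65 to 0.29, Lpl from -0.31 to 0.24 and Cebpa from -0.33 to 0.40 at E13.5. At P0 the range was -0.14 to 0.21 for Fabp4, -0.040 to 0.26 for Pnpla2, -0.34 to 0.014 for Lipe and -0.0012 to 0.21 for Pparg. At P20 it was -0.025 to 0.35 for Pparg and -0.24 to 0.055 for Cebpa, and in chondrocytes -0.27 to 0.31 for Lipe and -0.17 to 0.77 for Pparg. Cebpa ran from -0.45 to 0.083 for P0 minus E13.5 in biallelic tongues, and the stage difference of the genotype effect from -0.11 to 0.26 for Pparg (P20 minus P0) and from -0.52 to 0.21 for Cebpa (P20 minus E13.5). The cause was not tested. Depth limits the 4 low members, whose counts are too small to compare between genotypes.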

Other observations

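Brown fat genes were present in part. In wild type tongues Cox8b was at 1.41 ± 0.97 RPM at E13.5 and 90.3 ± 14.6 RPM at P20 (SD, n = 3 each), and Cidea at 0.06 ± 0.09 and 2.93 ± 0.66 RPM, while Ucp1 was at 0.18 ± 0.09 RPM at P20. From P0 to P20 Cox8b rose by 2.16 and Cox7a1 by 1.95 on the log2 scale in wild type tongues. Over the same step Dio2 fell, by 1.13 in wild type and 1.36 in biallelic tongues. Cidea had 0.17 in wild type tongues, with overlapping stages. Cox8b is also known from striated muscle. Klf15, a glucocorticoid-induced regulator of fat and muscle metabolism, spread widely at birth, from 2.32 to 18.1 RPM in wild type and from 2.81 to 15.5 RPM in biallelic tongues, and was at 15.0 to 16.6 RPM in wild type tongues at P20. Cidec had 13 reads in the wild type and 0 in the biallelic libraries at P0, of which 9 came from wild type replicate 2.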
